A study of Homo sapiens with 24 samples.

Results

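Huh7 cells, a human hepatoma line, that carried a knockout (KO) of *ABHD6* were compared with wild-type (WT) Huh7 cells after 48 h in 800 µM palmitic acid, a saturated fatty acid. The comparison used the 4 KO and 4 WT libraries labelled 48 h, 8 of the 24 libraries of the series, and all genes of the table. The other 16 libraries were 4 per genotype in basal medium (0 h) and 4 per genotype after 24 h in the same acid. They entered the shared estimate of the spread and are given beside the 48 h values. The 0 h cells had no acid, and no library had 48 h of culture without it, so the time and the acid cannot be told apart. The labels are silent on how the knockout was made, on the number of clones, and on separate cultures within a group. A p-value here therefore speaks only of the spread among these libraries, which may be technical. The written treatment protocol describes a harvest on the first day only, and the 48 h time comes from the sample titles and the design text.

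ABHD6 is a serine hydrolase of the inner face of cell membranes. It cleaves monoacylglycerols, among them the endocannabinoid 2-arachidonoylglycerol, to a fatty acid and glycerol. In the liver, palmitic acid is activated to its CoA ester and then oxidised in mitochondria, desaturated, or built into glycerolipids and sphingolipids, and an excess of it is a common model of lipotoxic stress. Hepatocytes and hepatoma cells also secrete albumin, apolipoproteins, clotting factors and other plasma proteins.

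Values are FPKM, fragment counts scaled to transcript length and library size, as the authors deposited them. A difference is KO minus WT in mean log2(FPKM + 0.5), given ± its standard error (SE), so that -1 is a halving; it understates the change of low genes. Genes averaging 0.5 FPKM or more in the 24 libraries, 17252 in all, were tested with limma, and those with an adjusted p (Benjamini-Hochberg) under 0.05 are termed called. The smallest steps of the values placed 573881 to 765022 fragments behind each WT library at 48 h and 642844 to 705712 behind each KO library. A single fragment (1 fragment) then adds 0.654 to 0.871 FPKM to a transcript of 2 kb. Summed FPKM was 748250 in WT replicate 3 and 917350 to 949070 in the other WT libraries, against 799350 to 896830 in KO; WT replicate 3 also had the most fragments. *ABHD6* was too low to check the genotype: it was listed at 0.846, 0, 0 and 0 FPKM in the 4 WT libraries (replicates 0 to 3, the order used for every list of 4 values below) and at 0.718, 0.693, 0.771 and 0 in the 4 KO libraries, and was not tested. How strand was set in counting is not given in the sources here, and antisense-annotated genes held 44.0% to 47.4% of summed FPKM at 48 h. Values of genes that overlap a gene on the opposite strand are therefore uncertain, and such genes are marked ° below; genes without such an overlap are not free of this doubt.

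At 48 h, 11 of 17252 genes were called (0.0638%), 4 higher in KO (0.0232%) and 7 lower (0.0406%). They were 3 neighbouring mitochondrial genes listed at 0 in every WT library, *ID2*°, listed at 0 in every KO library, and 7 genes above 0 in both groups, of which *FBXO38* was higher in KO and *ADGRG5*, *MMEL1*°, *CCDC152*° and 3 antisense-annotated genes were lower. Without adjustment, 1131 genes had p under 0.05 (6.56%), 447 higher in KO (2.59%) and 684 lower (3.96%). The 4 KO libraries did not overlap the 4 WT libraries for 709 genes (4.11%), 301 higher (1.74%) and 408 lower (2.36%). The plot of all tested genes places the 7 called genes against the rest. Removing WT replicate 3 raised the number of calls to 33, 10 of the 11 among them, and removing KO replicate 2, WT replicate 0 or WT replicate 2 left 6. Without a variance trend the calls were the 3 mitochondrial genes and *ID2* alone, and a fit of the 2 groups alone kept these 4 and *AL049830.3* among 17 calls. A further fit left out genes listed at 0 throughout a group that averaged 5 FPKM or more in the other, and tested 17042 genes. In it 2 genes were called, the antisense-annotated *AC009630.2* and *AL049830.3*. The adjusted limma p was then 0.067 for *MMEL1* and 0.0729 for *FBXO38*, *ADGRG5* and *CCDC152*. In RNA of whole dishes, fewer cells with a transcript and less of it per cell cannot be told apart.

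**Figure D1:**
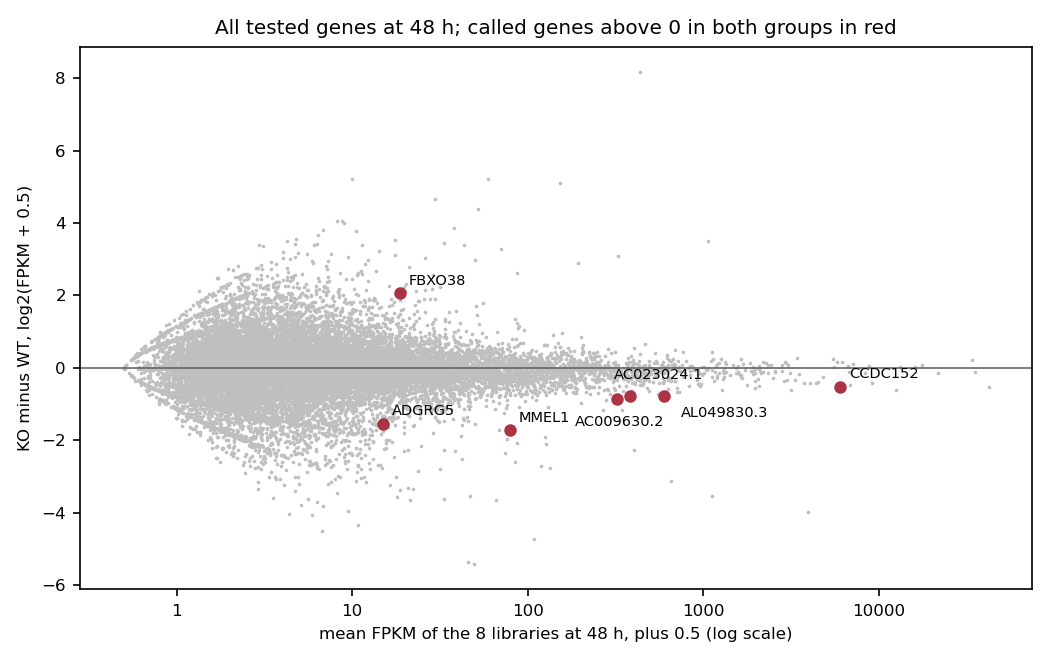
Difference between KO and WT at 48 h (log2(FPKM + 0.5), vertical axis) against the mean FPKM of the 8 libraries plus 0.5 (horizontal axis, log scale) for the tested genes, each a point. The 7 called genes above 0 in both groups are red and named, and the 4 called genes listed at 0 in a whole group are left out; points far from 0 at high FPKM include genes listed at 0 in some or all libraries of a group.

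The mitochondrial genome encodes 13 subunits of the respiratory chain and ATP synthase, and RNA from each strand is made as a long transcript that is then cut into single messages. Complex IV subunit 3 is encoded by *MT-CO3* (ENSG00000198938.2, chrM:9207-9990, GRCh38, plus strand), and ATP synthase subunits 6 and 8 by *MT-ATP6* (chrM:8527-9207) and *MT-ATP8* (chrM:8366-8572). *MT-ATP8* and *MT-ATP6* share 46 bases, and *MT-ATP6* and *MT-CO3* share 1 base, so the 3 genes form a single run. The reference sequence of *MT-ATP8* (GENCODE release 29, 5′ to 3′) is shown because its end, in capitals, is also the start of *MT-ATP6*, so a fragment there belongs to both genes.
MT-ATP8: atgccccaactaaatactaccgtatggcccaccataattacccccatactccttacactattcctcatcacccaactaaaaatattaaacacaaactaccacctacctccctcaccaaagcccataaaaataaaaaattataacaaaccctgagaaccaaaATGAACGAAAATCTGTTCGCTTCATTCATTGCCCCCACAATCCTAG

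At 48 h *MT-CO3* was listed at 0 in each of the 4 WT libraries, against 4903, 5169, 4386 and 3955 FPKM in the 4 KO libraries (adjusted p 2.81e-28). *MT-ATP6* was likewise at 0 in WT and at 6952, 6682, 5570 and 5590 FPKM in KO (adjusted p 5.20e-23). *MT-ATP8* was at 0 in WT and at 38287, 40147, 36519 and 39237 FPKM in KO (adjusted p 2.72e-24). No fold is given against a group listed at 0. Such a group has no spread of its own, and the size of these p-values depends on the 0.5 FPKM added to each value. They therefore add nothing to the listing itself. In WT cells at 24 h the same genes stood at 4688 to 5370, 4075 to 6224 and 26806 to 42385 FPKM, and at 0 h at 993 to 1230, 818 to 1603 and 4885 to 8343 FPKM. Every cell with working mitochondria uses these genes, and an exact 0 in a file without counts can be a failed estimate. Another gene, *MT-CO1* (complex IV subunit 1), had a value of 0 in each of the 8 libraries at 48 h and of the 8 at 24 h, and lay at 348 to 464 FPKM in WT and 273 to 494 in KO at 0 h. So only what the table lists is reported for these 4 genes.

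The other 9 mitochondrial subunits were above 0 in every library, and their log2 differences at 48 h were all negative, from -0.62 to -0.26 with a median of -0.48. None was called, 8 had an unadjusted p under 0.05, and the groups did not overlap for 5, all lower in KO. Of all genes tested, 3.96% were lower at an unadjusted p under 0.05 and 2.36% lower without overlap. Of those at 20 FPKM or more the shares were 9.39% and 5.24%. The 9 genes share a genome and long transcripts, and are not independent of each other. RNA is made from each strand of this genome, so the doubt about strand holds for these 9 genes too. None of them has an annotated exon opposite its own, so none is marked °. *MT-ND5*, a complex I subunit, stood at 16005, 14585, 13291 and 16922 FPKM in WT and 10067, 11344, 9162 and 8883 in KO (-0.62 ± 0.13, adjusted p 0.079). *MT-ND1*, another complex I subunit, stood at 1863, 1410, 1277 and 1632 FPKM in WT and 1078, 1111, 998 and 861 in KO (-0.60 ± 0.15, adjusted p 0.212). For both genes each KO library lay below each WT library. *MT-ND6*, the complex I subunit encoded on the opposite strand of the mitochondrial genome, had the highest values, 53364, 52818, 57903 and 36619 FPKM in WT and 32698, 37878, 42766 and 25015 in KO (-0.54 ± 0.15, adjusted p 0.28), and there WT replicate 3 lay within the KO range. *MT-CYB*, the complex III subunit, stood at 5058, 4193, 3865 and 5421 FPKM in WT and 3578, 4021, 3134 and 3184 in KO (-0.41 ± 0.15, adjusted p 0.531), and 1 KO library lay above 1 WT library. *MT-CO2*, complex IV subunit 2, had the smallest difference, from 5920, 5145, 4840 and 5137 FPKM in WT to 4604, 4773, 3852 and 4299 in KO (-0.26 ± 0.13, adjusted p 0.784). The median of the 9 was -0.44 after median-of-ratios rescaling and -0.44 after quantile normalization.

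**Figure D2:**
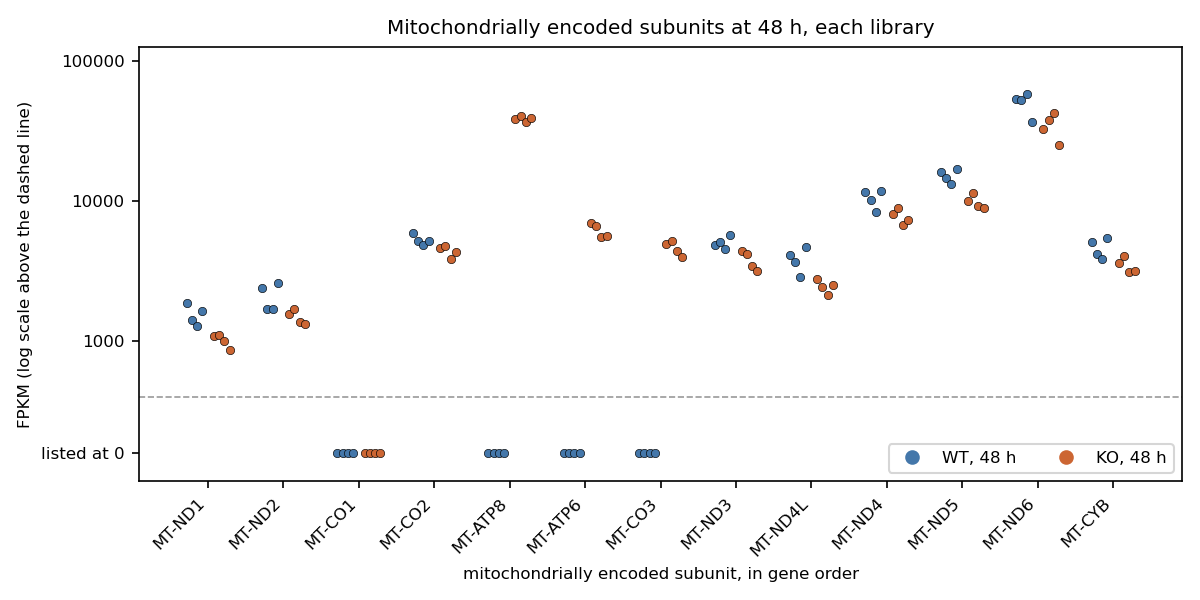
FPKM of the 13 mitochondrially encoded subunits at 48 h in each library (log scale above the dashed line; values of 0 are drawn below it), WT in blue and KO in orange, 4 points a group. *MT-ATP8*, *MT-ATP6* and *MT-CO3* are listed at 0 in WT only, *MT-CO1* in both groups, and the other 9 lie lower on average in KO.

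The mitochondrially encoded share of summed FPKM changed direction with the genes listed at 0. With all genes it was 13.8% ± 0.798 in KO and 11.1% ± 0.787 in WT (SD, n = 4), 2.64 percentage points higher in KO (exact permutation test, two-sided, p = 0.0286, the smallest that 4 against 4 allow). Without genes listed at 0 in all libraries of either group it was 8.57% ± 0.786 in KO and 11.3% ± 0.726 in WT, 2.75 percentage points lower in KO, with the same exact p of 0.0286 (difference -2.75). All shares lack *MT-CO1*. The 34 nuclear-encoded respiratory chain subunits on the list, all tested, had a median difference of 0.04, with none called and none under an unadjusted p of 0.05. Of them 1 did not overlap (2.94%, against 4.11% of all genes tested).

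For 3 of these 9 subunits the genotype difference at 48 h was called as unlike that at 0 h. Over the 9 genes the median difference was 0.39 (0 h), -0.06 (24 h) and -0.48 (48 h). For *MT-ND5* the difference was 0.88 ± 0.13 at 0 h (adjusted p 0.00277) and -0.07 ± 0.13 at 24 h, and from 0 h to 48 h it changed by -1.51 ± 0.18 (adjusted p 1.29e-04). *MT-ND3*, a complex I subunit, went from 0.96 ± 0.15 at 0 h to -0.42 ± 0.15 at 48 h, a change of -1.38 ± 0.21 (adjusted p 0.00413). *MT-ND4*, also of complex I, went from 0.72 ± 0.15 to -0.43 ± 0.15, a change of -1.15 ± 0.21 (adjusted p 0.0319). The *MT-ND5* and *MT-ND3* changes were called in each of 16 refits with a 0 h or 48 h library left out, and that of *MT-ND4* in 4 of them, without KO replicate 2 or WT replicate 3 at 0 h or KO replicate 1 or WT replicate 2 at 48 h (adjusted p up to 0.131 in the rest). For *MT-ND4L*, not called, the adjusted p of this change was 0.0828. At 48 h *MT-ND3* stood at 4844, 5058, 4569 and 5677 FPKM in WT and 4382, 4194, 3406 and 3147 in KO, and *MT-ND4* at 11663, 10238, 8352 and 11824 in WT and 8116, 8904, 6693 and 7346 in KO. *MT-ND3* values did not overlap between the groups and *MT-ND4* values did. None of the 9 was called as unlike the 24 h difference.

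**Figure D3:**
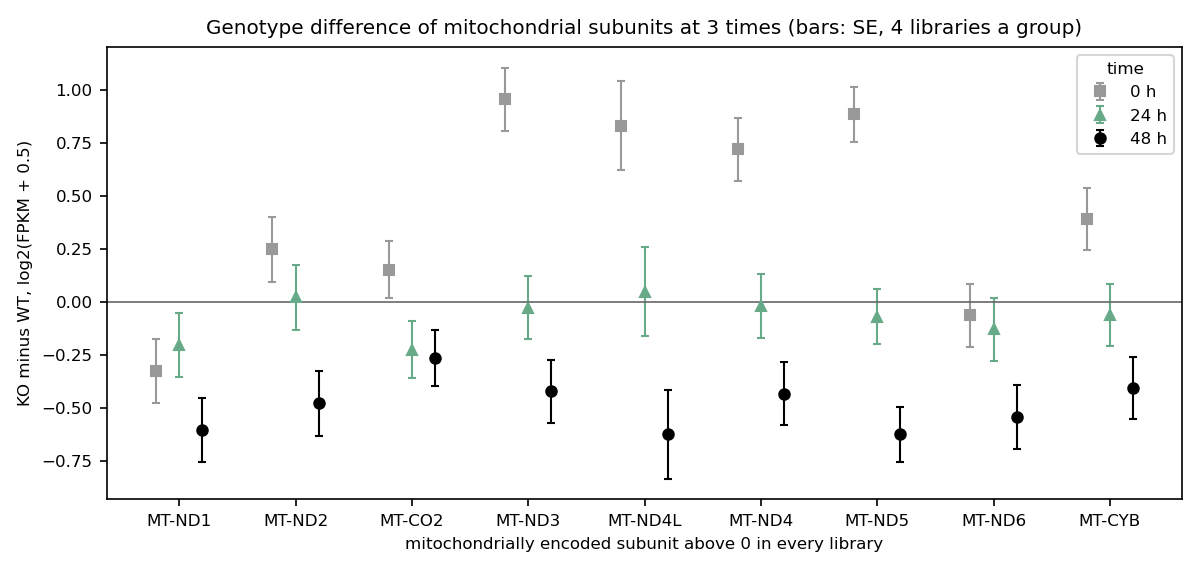
KO minus WT difference (log2(FPKM + 0.5), bars ± SE, 4 libraries a group) of the 9 mitochondrially encoded subunits above 0 in every library, at 0 h (squares), 24 h (triangles) and 48 h (circles). All 9 circles lie below 0, the triangles lie near 0, and 7 of the 9 squares lie above 0.

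*ID2*° (ENSG00000115738.9, chr2:8678845-8684453, GRCh38) encodes an inhibitor of basic helix-loop-helix transcription factors. It was listed at 10.6, 7.5, 6.02 and 9.17 FPKM in WT and at 0 in all 4 KO libraries at 48 h (adjusted p 6.00e-04). At 24 h it was above 0 in every library, at 1.6 to 12.6 FPKM in WT and 1.56 to 6.3 in KO, and at 0 h at 5.78 to 16.7 and 5.52 to 24.2. Its 48 h difference was called as unlike that at 0 h (adjusted p 0.0297) but not as unlike that at 24 h (adjusted p 0.338). The former call was kept in 6 of the 16 refits, without KO replicate 1 or 3 or WT replicate 1 at 0 h or KO replicate 1, WT replicate 1 or WT replicate 2 at 48 h, and the adjusted p reached 0.11 in the others. A value of 0 in a whole group is a listing, as for the mitochondrial genes, though this gene was low in all groups. The limit on the p-values of those genes holds for *ID2* too. Its antisense neighbour *ID2-AS1* was at 0 in all 8 libraries. The related genes *ID1*, *ID3* and *ID4*, chosen after their values were seen, were not called: *ID1* stood at 7.47, 7.16, 31.1 and 9.31 FPKM in WT and 6.29, 14.2, 2.23 and 8.23 in KO (-0.75 ± 0.79), and the interval of its difference (-2.38 to 0.89, 95%) held both directions. *ID3* lay at 0 to 4.93 FPKM in WT and 0 to 5.62 in KO, and *ID4* at 1.67 to 2.29 and 0.768 to 1.69.

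*FBXO38* (ENSG00000145868.16, chr5:148383935-148442836) encodes an F-box protein, the substrate-binding part of a ubiquitin ligase. It stood at 10.5, 7.46, 7.68 and 3.11 FPKM in WT and 32.7, 30.1, 26.05 and 28.4 in KO, so each KO library was well above each WT library (2.06 ± 0.40, adjusted p 0.0471). It was the only called gene above 0 in both groups that was higher in KO. At 0 h and 24 h its groups overlapped (differences 0.39 ± 0.40 and -0.20 ± 0.40, not called), and the 48 h difference was not called as unlike either (adjusted p 0.579 and 0.571). The call was lost whichever of the 8 libraries was left out, with adjusted p from 0.0548 (without WT replicate 0) to 0.188 (without KO replicate 3).

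*ADGRG5* (ENSG00000159618.15, chr16:57542421-57591681) encodes an adhesion G protein-coupled receptor. It stood at 19.4, 28.2, 24.2 and 16.2 FPKM in WT and 8.75, 6.06, 5.8 and 8.03 in KO (-1.54 ± 0.30, adjusted p 0.0471), with no overlap. The difference was nearly the same size at 0 h, where it was also called (-1.65 ± 0.30, adjusted p 0.0143; 18.3, 29.7, 21.4 and 15.04 FPKM in WT and 7.84, 5.16, 5.41 and 6.56 in KO). At 24 h it was -0.79 ± 0.30 and not called, with WT at 10.1, 12.6, 12.8 and 6.88 FPKM and KO at 4.74, 5.8, 5.53 and 7.25. The 48 h difference was not shown to be unlike those at the earlier times (adjusted p 0.994 against 0 h and 0.968 against 24 h), and 0 h was not tested against 24 h. The call at 48 h held without KO replicate 0 or without WT replicate 3 and was lost without any of the other 6 libraries (adjusted p 0.0933 to 0.207). *ADGRG5* and *FBXO38* were the only called genes that were above 0 in both groups and had no annotated exon opposite their own. A fit of only the 9213 tested genes without such an exon called neither of them. Its 3 calls were the mitochondrial genes listed at 0 in WT. Of the neighbouring family members, chosen after their values were seen, *ADGRG1* was above 0 in 1 library of each group and *ADGRG3* in none.

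*MMEL1*° (ENSG00000142606.15, chr1:2590639-2632990), which encodes a membrane metalloendopeptidase, stood at 113, 127, 168 and 70.8 FPKM in WT and 38.2, 52.1, 15.4 and 45.3 in KO (-1.72 ± 0.31, adjusted p 0.0293). Each KO library was below each WT library. The gene on the opposite strand, *PRXL2B*, was above 0 in 1 of the 8 libraries, at 1.95 FPKM. The call held without KO replicate 1, KO replicate 3 or WT replicate 3 and was lost without any of the other 5 (adjusted p 0.0505 to 0.131). *CCDC152*° (ENSG00000198865.9, chr5:42756801-42802360) encodes a coiled-coil protein and overlaps *SELENOP* on the opposite strand, which encodes the selenium carrier selenoprotein P. *CCDC152* stood at 8290, 7390, 7191 and 5718 FPKM in WT and 5275, 4660, 5447 and 4451 in KO (-0.52 ± 0.10, adjusted p 0.0471), and *SELENOP* at 47.04, 47.9, 19.6 and 53.2 in WT and 45.4, 42.3, 23.5 and 29.2 in KO (-0.21 ± 0.30, adjusted p 0.966). The *CCDC152* groups did not overlap and the *SELENOP* groups did. Whether fragments of the opposite-strand gene entered the *MMEL1* or *CCDC152* values was not tested. The *CCDC152* groups were also apart at 24 h, at 4669 to 5119 FPKM in WT and 3950 to 4396 in KO (-0.21 ± 0.10, adjusted p 0.94). The *CCDC152* call held only without WT replicate 3 (adjusted p 0.00207) and was lost without any other library (0.0574 to 0.23).

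The other 3 called genes carry clone names, fall outside the naming rule, and are named because they were called. *AC009630.2*°, annotated antisense to the replication factor gene *GINS4*, stood at 434, 440.4, 362 and 422 FPKM in WT and 262, 222, 242 and 191 in KO (-0.86 ± 0.11, adjusted p 2.04e-04). *AL049830.3*° (chr14:30876179-30889808), antisense to the cochlin gene *COCH*, stood at 833, 720.3, 811 and 669 FPKM in WT and 429, 459, 439 and 431 in KO (-0.78 ± 0.12, adjusted p 0.00271). *AC023024.1*° (chr15:101295419-101305737), antisense to the proprotein convertase gene *PCSK6*, stood at 544, 539, 529.6 and 338 FPKM in WT and 306, 288, 313 and 223 in KO (-0.77 ± 0.15, adjusted p 0.0471). In all 3 each KO library was below each WT library, as it was for *AC023024.1* at 0 h (-0.57 ± 0.15, adjusted p 0.254) and *AL049830.3* at 24 h. The genes on the other strand were lower: *COCH* stood at 33.1, 31.9, 28.01 and 31.2 FPKM in WT and 20.3, 18.5, 21.98 and 18.8 in KO (-0.63 ± 0.33, adjusted p 0.816), also with no overlap. *GINS4* was at 1.36 to 1.996 FPKM in WT and 0 to 5.13 in KO, and *PCSK6* at 8.06 to 12.2 and 2.72 to 10.4. *AC009630.2* and *AL049830.3* stayed called without any 1 of the 8 libraries (adjusted p at most 0.00174 and 0.0253), and *AC023024.1* only without WT replicate 3 (0.00125, otherwise 0.0625 to 0.23).

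The 2 antisense genes that stayed called at 48 h were also the only nuclear genes above 0 in both groups whose 48 h difference was called as unlike that at 0 h. *AC009630.2* differed by 0.12 ± 0.11 in basal medium and -0.03 ± 0.11 after 24 h, against -0.86 after 48 h, a change of -0.98 ± 0.15 from 0 h (adjusted p 0.00413). *AL049830.3* differed by 0.14 ± 0.12 at 0 h and -0.47 ± 0.12 at 24 h, a change of -0.92 ± 0.17 from 0 h to 48 h (adjusted p 0.0297). With 1 library left out the former was called in 16 of 16 refits and the latter in 5, without KO replicate 1 or WT replicate 0 at 0 h or KO replicate 1, WT replicate 1 or WT replicate 3 at 48 h (adjusted p up to 0.11 in the rest). *AC009630.2* stood at 896 to 1120 FPKM in WT and 1050 to 1172 in KO at 0 h, and at 465 to 568 and 454 to 516 at 24 h, so the groups overlapped at both earlier times. Of the 11 called genes, 6 (54.5%) had an exon opposite their own, against 46.1% of the genes tested. Among the tested genes at 20 FPKM or more, where most called genes lie, 2298 of 3227 had one, a larger share than among the called genes. Antisense-annotated genes as a class held 44.6% ± 0.491 of summed FPKM in KO and 45.9% ± 1.37 in WT (difference -1.25 percentage points, exact permutation p = 0.171), and the difference was -1.78 (p = 0.0286) without WT replicate 3 and 1.12 (p = 0.114) once genes at 0 throughout a group were removed.

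**Figure D4:**
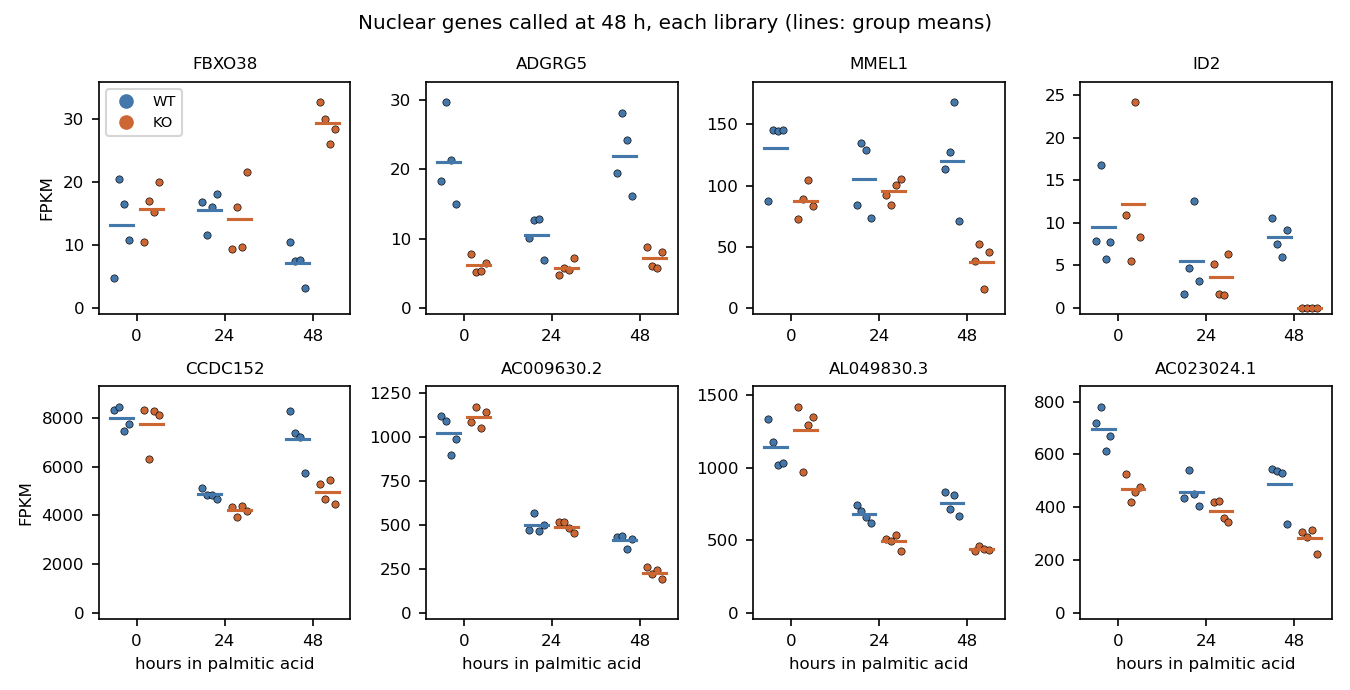
FPKM of the 8 nuclear genes called at 48 h in each library at 0, 24 and 48 h, WT in blue and KO in orange, with lines at group means. At 48 h the groups do not overlap in any panel; *ADGRG5* and *AC023024.1* are also apart at 0 h and *CCDC152* and *AL049830.3* at 24 h, and *ID2* is listed at 0 in KO at 48 h.

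In all, 26 genes were listed at 0 in all libraries of a group while the other group averaged at least 20 FPKM, 14 at 0 in WT and 12 at 0 in KO. The 3 mitochondrial genes above are among them and were the only ones above 0 in all 4 libraries of the other group. In 15 of the 26 a single library held the whole value. The microRNA gene *MIR3665*° stood at 8940 FPKM in WT replicate 1 and at 0 in the other 7 libraries. Another, *MIR3661*°, stood at 8492 FPKM in KO replicate 0 and at 0 in the others. Both annotated genes are short, and neither was called.

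Lists of genes that bear on ABHD6 and on a fatty acid load were described by their counts and medians, beside a median of -0.003 over all genes tested and -0.07 over the 3227 tested genes that averaged 20 FPKM or more at 48 h. Of all genes tested, 1.74% lay above WT in KO without overlap and 2.36% below, and 2.59% and 3.96% had an unadjusted p under 0.05 in those directions. Of the 3227 genes the shares were 2.32% above and 5.24% below without overlap, 2.97% and 9.39% at an unadjusted p under 0.05, and 57.8% had negative differences. Outside the mitochondrial list and *ID2*, no member of any list was called. On the list of monoacylglycerol and endocannabinoid enzymes, 14 of 18 were tested, and the median was -0.15. Of those tested 1 (*NAAA*) had an unadjusted p under 0.05 and was higher in KO. *NAAA*, which encodes an acid amidase of fatty acid ethanolamides, was listed at 0 in all 4 WT libraries and stood at 3.77, 6.6, 8.36 and 0 FPKM in KO (adjusted p 0.564). *MGLL*, which encodes the main monoacylglycerol lipase, stood at 0.961, 1.48, 0.969 and 2.01 FPKM in WT and 0.818, 0, 0.445 and 0.73 in KO (-0.95 ± 0.64, 95% interval -2.28 to 0.38). Each KO value lay below each WT value, all of them within a few fragments of 0. *ABHD12*, a related hydrolase, stood at 62.5, 63.7, 93.4 and 93.98 FPKM in WT and 40.2, 80.8, 58.3 and 59.7 in KO (-0.40 ± 0.44, interval -1.31 to 0.50), with overlap. *DDHD2*°, a triglyceride and phospholipid hydrolase, stood at 477, 203, 302 and 254 and 359.6, 282, 200.4 and 216 (-0.19 ± 0.28). *NAAA*, *MGLL* and *ABHD12* were chosen after their values were seen.

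Of 19 glycerolipid and triglyceride synthesis enzymes 17 were tested, 12 with negative differences, and the median was -0.35; 2 had an unadjusted p under 0.05, both lower in KO. *AGPAT2*, which adds the second acyl chain to the glycerol backbone, stood at 7.18, 16.8, 8.54 and 6.64 FPKM in WT and 3.02, 0, 0 and 3.98 in KO (-2.77 ± 0.75, adjusted p 0.265). Its groups did not overlap, and at 0 h its difference was -2.41 ± 0.75 and at 24 h -0.18 ± 0.75. *DGAT1*°, which makes triglyceride from diglyceride, varied widely, at 12.4, 18.8, 12.5 and 28.6 FPKM in WT and 0.571, 13.6, 33.6 and 3.55 in KO. Lipid droplet genes (15 of 20 tested) had a median of -0.03, with 1 member at an unadjusted p under 0.05 in each direction. The droplet coat gene *PLIN2* stood at 24.5, 10.6, 18.2 and 12.9 FPKM in WT and 20.6, 33.1, 31.7 and 29.8 in KO (0.83 ± 0.42, adjusted p 0.784), and only WT replicate 0 reached the KO range. *CIDEB*°, a droplet protein of hepatocytes, stood at 285, 274, 304 and 245 FPKM in WT and 263, 211, 184 and 212 in KO (-0.35 ± 0.13, adjusted p 0.512), with 1 KO library within the WT range. *AGPAT2* was chosen after its values were seen.

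Fatty acid synthesis and desaturation genes (19 of 20 tested) had a median of -0.09 and beta oxidation genes (27 of 30) a median of 0.08, each with 1 member at an unadjusted p under 0.05, higher in KO. *SCD*, the desaturase that turns palmitate and stearate into monounsaturated acids, was well measured, at 231, 237, 189 and 292 FPKM in WT and 222, 214, 215 and 213 in KO (-0.12 ± 0.15); the 95% interval of -0.43 to 0.19 leaves out a 2-fold difference. *ACLY*°, ATP citrate lyase, stood at 44.8, 42.6, 46.1 and 45.2 FPKM in WT and 58.6, 84.03, 62.7 and 52.3 in KO (0.50 ± 0.21, adjusted p 0.669), without overlap. *ETFB*°, a subunit of the flavoprotein that takes electrons from acyl-CoA dehydrogenases, stood at 1.76, 7.06, 5.12 and 6.89 and 12.6, 39.8, 12.2 and 8.43 (1.60 ± 0.53, adjusted p 0.488), also without overlap. The 25 cholesterol genes were all tested and had a median of -0.06; *MVD*, mevalonate diphosphate decarboxylase, was at 36.4, 58.9, 57.6 and 31.5 FPKM in WT and 20.3, 23.9, 29.001 and 12.9 in KO (-1.09 ± 0.38, adjusted p 0.498), and *CYP51A1*° at 349.9, 318, 311 and 322 and 317, 297, 304 and 307 (-0.09 ± 0.16, interval -0.41 to 0.24). Phospholipid genes (22 of 26 tested) had a median of -0.10 and sphingolipid genes (24 of 26) one of 0.05. *CHKA*°, the choline kinase that opens phosphatidylcholine synthesis, stood at 153, 122, 100.1 and 100 FPKM in WT and 80.03, 97.6, 77.9 and 67.6 in KO (-0.54 ± 0.18, adjusted p 0.488), without overlap. *ACLY*, *ETFB* and *MVD* were chosen after their values were seen. The medians of the lipid droplet and cholesterol lists changed sign under rescaling or quantile normalization, and that of fatty acid synthesis without WT replicate 3.

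Genes of secreted liver proteins mostly had lower mean values in KO, with none called. Of the 16 tested albumin and plasma carrier genes (18 listed), 13 had negative differences, the median was -0.52, 5 had an unadjusted p under 0.05, and 3 did not overlap, all lower in KO (18.8%, against 2.36% of all genes tested and 5.24% of those at 20 FPKM or more). The 20 tested genes of the acute phase, complement and coagulation list (26 listed) had a median of -0.39, with 16 negative, 4 at an unadjusted p under 0.05, all lower, and 3 below WT without overlap, against the same shares. The 19 tested apolipoprotein and lipoprotein assembly genes (20 listed) had a median of -0.40, with 15 negative, 2 at an unadjusted p under 0.05, both lower, and 2 below and 1 above WT without overlap. Some genes are in more than 1 list. The 3 medians kept their sign under rescaling, under quantile normalization and without WT replicate 3. At 0 h they were -0.12, -0.44 and -0.12 in the same order, and at 24 h -0.36, -0.72 and -0.43.

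*ALB*, which encodes albumin, stood at 285, 319, 244 and 269 FPKM in WT and 142, 203, 184 and 156 in KO (-0.71 ± 0.24, adjusted p 0.488). *TF*, transferrin, stood at 203, 232, 196 and 189 and 151, 159, 147 and 131 (-0.48 ± 0.16, adjusted p 0.488). *FGB*, the fibrinogen beta chain, stood at 176, 133, 140.1 and 134 and 98.4, 92.3, 121 and 95.9 (-0.51 ± 0.16, adjusted p 0.46). For these 3 genes each KO library lay below each WT library, as for *APOA1*°, the main protein of high density lipoprotein, at 46.1, 62.2, 74.4 and 54.6 FPKM in WT and 30.002, 27.8, 34.9 and 34.7 in KO (-0.87 ± 0.19, adjusted p 0.119). *FABP1*, the liver fatty acid binding protein, stood at 460.1, 554, 493 and 387 and 296, 296, 389.6 and 249 (-0.63 ± 0.19, adjusted p 0.39), where KO replicate 2 and WT replicate 3 overlapped. *APOA2*, a second protein of high density lipoprotein, went the other way, at 419, 452, 459.98 and 491 FPKM in WT and 521, 573, 646 and 662 in KO (0.40 ± 0.20, adjusted p 0.786), without overlap. *APOE* stood at 134, 148, 193 and 119.7 and 123, 156, 127 and 114 (-0.18 ± 0.26) and *SERPINA1*, alpha-1-antitrypsin, at 360.3, 448, 298 and 437 and 332, 322, 335 and 344 (-0.19 ± 0.13), both with overlap. *ALB*, *TF*, *APOA1* and *FABP1* were chosen after their values were seen. At 0 h and 24 h the differences were -0.50 and -0.25 for *ALB*, -0.72 and -0.59 for *TF*, -0.46 and -0.65 for *FGB*, -0.16 and -0.88 for *APOA1* and -0.86 and -0.34 for *FABP1*.

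The labelled cell type was checked against its markers. All 10 hepatocyte and hepatoma markers were above 0 in all 8 libraries, and their summed FPKM was 1953 to 2361 in WT and 1624 to 1806 in KO. The markers overlap the secreted protein lists: 9 of 10 had negative differences, with a median of -0.38 and 5 below WT without overlap, where 57.8% of the genes at 20 FPKM or more were negative and 5.24% below without overlap. The fetal liver marker *AFP* stood at 210 to 285 FPKM in WT and 182 to 275 in KO, and *GPC3*, a hepatoma surface glypican, at 688, 819, 622 and 605 and 557, 588, 571 and 564 (-0.25 ± 0.14). The hepatocyte transcription factors (18 of 19 tested) had a median of -0.12, and none had an unadjusted p under 0.05. The summed markers of other cell types overlapped between the groups, although single members did not. Of 10 endothelial markers 8 were at 0 in all 8 libraries, among them *VWF*, *CDH5* and *KDR*, and the sum was 10.7 to 25.6 FPKM in WT and 4.33 to 14.5 in KO. Stellate and fibroblast markers summed to 0 to 12.3 FPKM in WT and 6.10 to 7.55 in KO, with *DCN*, *DES* and *THY1* at 0. Immune markers summed to 183 to 327 FPKM in WT and 229 to 344 in KO, nearly all of it from lysozyme (*LYZ*°, 156 to 296 and 217 to 329), while the pan-leukocyte gene *PTPRC* stayed at 0.605 FPKM or below. The macrophage receptor gene *CSF1R* was the 1 of 6 tested immune markers without overlap, at 0.518 to 2.65 FPKM in WT and 0 to 0.435 in KO. Biliary and progenitor markers summed to 449 to 814 FPKM in WT and 342 to 579 in KO, mostly *CD24*. Of the 9 tested, the epithelial adhesion gene *EPCAM* lay lower in KO without overlap, at 3.79 to 13.3 FPKM in WT and 1.07 to 2.79 in KO, and the transcription factor gene *SOX4*° higher, at 11.5 to 17.7 and 18.5 to 21.3. These 3 genes were chosen after their values were seen. Whether any other cell type was present, or had a part in any result, was not tested.

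Stress-response lists had positive medians with no member called. Of 25 genes of ATF4 and the integrated stress response tested (26 listed), 21 had positive differences, the median was 0.25, and 1 had an unadjusted p under 0.05, higher in KO. *ATF4* itself, the transcription factor of that response, stood at 95.7, 103, 89.9 and 124 FPKM in WT and 100.1, 117, 130.1 and 143 in KO (0.25 ± 0.23), with overlap. *ATF3*, a factor induced with it, stood at 3.6, 6.84, 9.83 and 6.73 FPKM in WT and 16.02, 23.8, 20.01 and 15.3 in KO (1.46 ± 0.64, adjusted p 0.709), without overlap. Of 25 NRF2 genes, all tested, 21 were positive with a median of 0.21 and 2 at an unadjusted p under 0.05, both higher; 2 lay above WT and 1 below without overlap. *TXNRD1*, thioredoxin reductase, stood at 54.95, 55.7, 68.7 and 59.3 FPKM in WT and 101, 101, 115 and 96.1 in KO (0.79 ± 0.20, adjusted p 0.231). *FTH1*°, the ferritin heavy chain, stood at 1019, 847, 956 and 952 and 1251, 1114, 1420 and 1377 (0.45 ± 0.18, adjusted p 0.627). For both genes each KO library lay above each WT library, and at 24 h the differences were -0.03 and -0.20. The member below was *AKR1B10*, an aldo-keto reductase, at 11.8, 13.2, 20.3 and 16.3 FPKM in WT and 11, 7.24, 6.78 and 10.3 in KO (-0.77 ± 0.74, adjusted p 0.949). *NQO1*°, a quinone reductase, also had a negative difference, at 22.97, 8.41, 30.03 and 28.2 and 15.3, 10.2, 10.9 and 18.2 (-0.59 ± 0.40, adjusted p 0.896), with overlap. *AKR1B10* and *NQO1* were chosen after their values were seen.

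Endoplasmic reticulum folding and degradation genes (28, all tested) had a median of 0.14 with none at an unadjusted p under 0.05. The chaperone *HSP90B1*° stood at 394, 305, 320.2 and 288 FPKM in WT and 368, 286, 355 and 294 in KO, and the 95% interval of its difference was -0.38 to 0.38. Immediate early genes, which growth factors and stress switch on within minutes, had the highest list median, 0.74 over 14 tested of 19, with 13 positive, 2 at an unadjusted p under 0.05, both higher, and 2 above WT without overlap (14.3%, against 1.74% of all genes tested). The list's median was 0.11 at 0 h and 0.84 at 24 h. Its members *FOS*, *FOSB*, *EGR1*, *EGR2* and *EGR3* were too low to be tested. *KLF4* stood at 6.38, 6.27, 4.1 and 7.88 FPKM in WT and 8.75, 16.7, 12.3 and 12.4 in KO (0.97 ± 0.44, adjusted p 0.727), without overlap, and *JUND* at 26.1, 19.8, 21.4 and 8.52 and 32.95, 63.99, 20.6 and 38.03 (1.01 ± 0.72, interval -0.49 to 2.50). The cytokine gene *IL1B* was above 0 in 1 WT library, at 2.93 FPKM, and in all 4 KO libraries, at 7.51, 2.04, 4.15 and 3.55 (2.45 ± 0.70, adjusted p 0.337). The 16 tested interferon response genes had a median of -0.21. Apoptosis genes (20 of 23 tested) had a median of 0.23 and p53 targets (10 of 14) one of 0.40, with none at an unadjusted p under 0.05 in either. The medians for the ATF4, NRF2, immediate early, apoptosis and p53 lists kept their sign under both scalings and without WT replicate 3. *ATF3*, *TXNRD1*, *KLF4* and *IL1B* were chosen after their values were seen.

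Of 25 genes of the G1/S transition and DNA replication, all tested and none called, 19 were negative, with a median of -0.46, 5 at an unadjusted p under 0.05, all lower, and 2 below WT without overlap (8%, against 5.24% of the genes at 20 FPKM or more). *TYMS*°, thymidylate synthase, stood at 58.8, 72.7, 76.98 and 48.7 FPKM in WT and 40.7, 47.6, 40.2 and 41.2 in KO (-0.58 ± 0.22, adjusted p 0.585), without overlap. *RRM2*, a ribonucleotide reductase subunit, stood at 22.7, 22.05, 25.4 and 12.1 and 12.97, 11.3, 10.03 and 12 (-0.76 ± 0.29, adjusted p 0.613), and there WT replicate 3 lay within the KO range. The 26 genes of G2/M and mitosis had a median of -0.19 with 1 at an unadjusted p under 0.05, and that median turned positive (0.04) without WT replicate 3. For the G1/S list it was -0.53 without that library, and the 0 h and 24 h medians were -0.13 and -0.16.

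The 32 cytosolic ribosomal protein genes, all tested, had a median of 0.25. Of these 28 were positive, 6 had an unadjusted p under 0.05, all higher, 6 lay above WT without overlap (18.8%, against 1.74% of all genes tested and 2.32% of those at 20 FPKM or more), and 16 overlap a gene on the other strand. *RPL4*°, of the large subunit, stood at 104, 122, 129 and 129 FPKM in WT and 192, 225, 166 and 149 in KO (0.58 ± 0.16, adjusted p 0.295). *RPL11*, also of the large subunit and with no overlapping gene, stood at 564, 548, 681 and 659 and 696, 689, 698 and 824 (0.25 ± 0.14, adjusted p 0.823). Both were higher in each KO library than in each WT library. Summed over the 32 genes, FPKM was 4967 to 5841 in WT and 6057 to 6441 in KO. At 0 h the list's median was 0.12 and at 24 h -0.02. The 28 proteasome subunits had a median of 0.16, with 1 at an unadjusted p under 0.05 in each direction; *PSMA1* of the core particle stood at 27.5, 28.5, 39.6 and 35.2 FPKM in WT and 14.8, 11.5, 15.3 and 19.6 in KO (-1.08 ± 0.28, adjusted p 0.231), without overlap. *TYMS*, *RRM2*, *RPL4* and *PSMA1* were chosen after their values were seen.

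**Figure D5:**
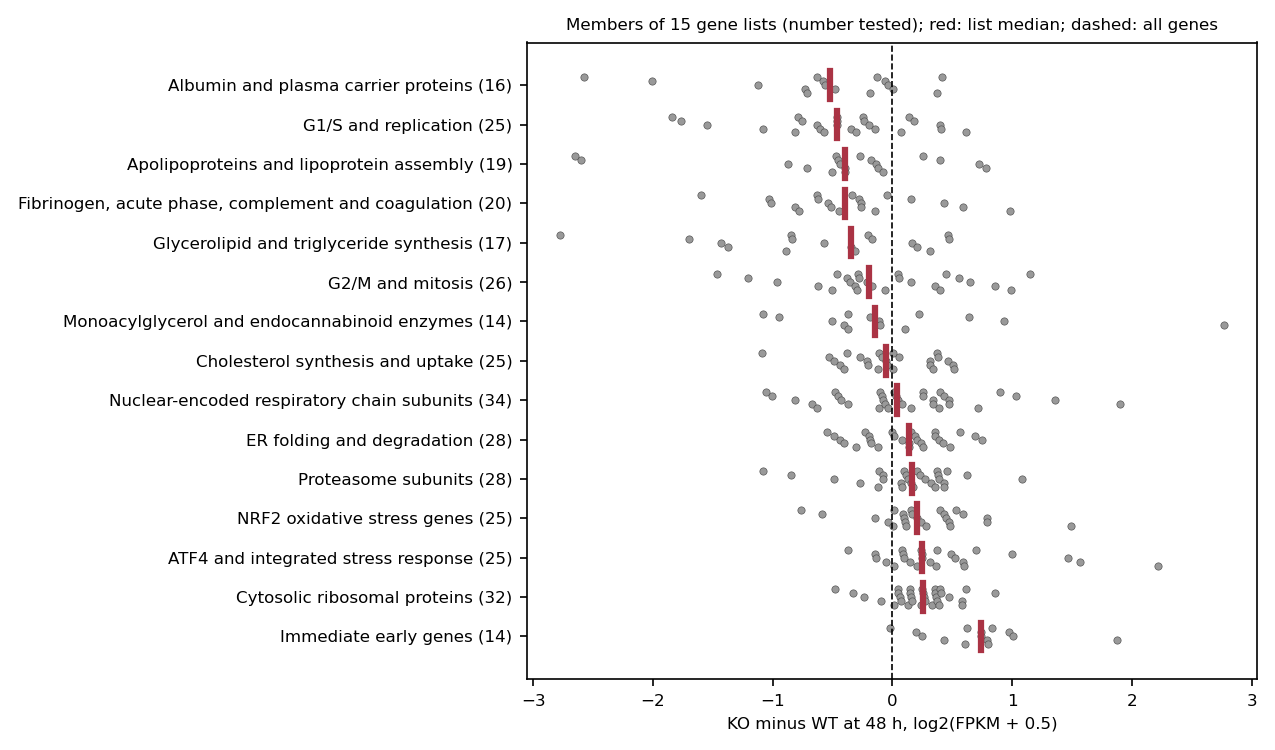
KO minus WT difference at 48 h (log2(FPKM + 0.5), horizontal axis) of the tested members of 15 gene lists, each member a grey point, with the list median in red and the median of all tested genes dashed. Medians run from -0.52 for albumin and plasma carrier genes to 0.74 for immediate early genes, and no member shown was called.

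The KO minus WT differences at 48 h were set beside those at 0 h and 24 h, which come from other libraries. Across the 938 tested genes averaging 100 FPKM or more at 48 h and above 0 in some library of each of the 6 groups, genes not being independent replicates, the differences at 48 h had a Pearson correlation of -0.015 with those at 0 h and 0.27 with those at 24 h. Across the 3196 such genes with at least 20 FPKM the values were 0.0005 and 0.094. At 0 h 17 genes were called (0.0985%) and at 24 h 2 (0.0116%). *ADGRG5* and *MT-CO3* were called at both 0 h and 48 h, 18.2% of the 11 and 11.8% of the 17, and no gene was called at both 24 h and 48 h. *MT-CO3* was called higher in KO at 0 h from values above 0 in both groups (993, 1055, 1230 and 1080 FPKM in WT and 1781, 1731, 1418 and 2263 in KO, 0.71 ± 0.12, adjusted p 0.007). The tested difference between the 48 h and 0 h effects was called for 9 genes (0.0522%), which are the 3 mitochondrial genes listed at 0 in WT, *MT-ND5*, *MT-ND3*, *MT-ND4*, *ID2* and the 2 antisense genes above. That between the 48 h and 24 h effects was called for 3 (0.0174%), *MT-CO3*, *MT-ATP6* and *MT-ATP8*, each listed at 0 in WT at 48 h.

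The precision differed with the level of a gene. For the 953 tested genes that averaged 100 FPKM or more at 48 h the median SE of a difference was 0.18, and the 95% interval lay within 2-fold in either direction for 86.9% of them. At 20 to 100 FPKM the median SE was 0.34 and that share 49.9%, at 5 to 20 FPKM 0.62 and 12.3%, and below 5 FPKM 0.82 and 0.619%. The 9202 tested genes below 5 FPKM include *MGLL* and *IL1B*, and for most of these genes the interval reached past 2-fold.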

How the data were processed

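Gene values were deposited by the authors as FPKM, 1 column per library; the submitters' processing notes mention STAR, Cufflinks, Cuffdiff and the build GRCh38, with no version or role, and how strand was set is not given in the sources here. Per the labels' protocols, RNA was extracted with an RNeasy kit and libraries were made with an Illumina directional mRNA kit. Of 58024 table rows, 45 copies of genes on chromosome Y, all at 0, were left out; GENCODE release 29 matched 57375 of 57979 IDs (98.96%).

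The 6 group means of log2(FPKM + 0.5) were fitted in limma 3.58.1 (R 4.3.3) with a variance trend, no scaling between libraries, 18 residual and 4.63 prior degrees of freedom, over 17252 genes averaging 0.5 FPKM or more in all 24 libraries. Calls used Benjamini-Hochberg adjusted p under 0.05. Fragments per library were read from the smallest FPKM steps of genes that have 1 transcript, 1500 bases or longer. Shares were compared by exact permutation over all 70 splits. The fit was tested on simulated data. Python 3.11.15, pandas 2.3.3 and matplotlib 3.10.9 made tables and plots.

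The comparison, the 35 pathway and 5 marker lists and the naming rule were chosen with earlier results of these data known. The rule named *ABHD6*; up to 12 called genes per direction with at least a 2-fold change, 5 FPKM in the higher group, no overlap and values above 0 in both groups; the 10 called genes of highest level; genes listed at 0 in a whole group with at least 20 FPKM in the other; up to 4 called and 2 uncalled members of each list; all mitochondrial subunits; and up to 6 genes per direction whose 48 h and 0 h differences were called as unlike. Alternatives were pseudocounts of 0.1 and 1, other filters on low values, quantile normalization, median-of-ratios rescaling, no variance trend, a fit of the compared groups only, robust variance, array weights, a replicate block, each library left out, and the removal of genes listed at 0 in a group or with opposite-strand overlap. The limma refits removed genes listed at 0 in a compared group only where another compared group averaged 5 FPKM or more. The shares left out every gene at 0 throughout a 48 h group.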

Additional observations from a re-analysis of the deposited data

Results flagged for a closer look

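The genotype difference at 48 h was unlike that at 0 h, by limma's test of the difference between the 2, for 9 genes. On the log2(FPKM + 0.5) scale the change was -1.51 for *MT-ND5*, -1.38 for *MT-ND3* and -1.15 for *MT-ND4*, subunits of complex I, and -0.98 for *AC009630.2* and -0.92 for *AL049830.3*, both annotated antisense. The remaining 4 rest on a group listed at 0 at 48 h and are given by the other group's mean: *ID2* averaged 8.31 FPKM in WT, and in KO *MT-ATP6* averaged 6199 FPKM, *MT-CO3* 4603 and *MT-ATP8* 38547. These 3 were also the genes whose 48 h difference was unlike that at 24 h.

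A library far from the other 3 of its group was found in 18 of 168 groups of 4 values checked (Dixon's test at 95%). Chance alone gives about 1 in 20, but a group with 3 values at 0 and 1 above is flagged whatever that value. Such groups were *ABHD6*, *ADGRG1*, *IL1B*, *MIR3665* and *PRXL2B* in WT and *ADGRG1*, *CSF1R* and *MIR3661* in KO. The 18 can therefore not be read against that rate. Summed FPKM was 748250 in WT replicate 3, below the other WT libraries, and the same library had the lowest value of *AC023024.1*, 338 FPKM. In WT, 1 library stood above the rest for *ABHD6* (0.846 FPKM), *ADGRG1* (4.38), *FGB* (176), *ID1* (31.1), *IL1B* (2.93), *MIR3665* (8940) and *PRXL2B* (1.95). In KO, 1 library stood above the rest for *ADGRG1* (4.48 FPKM), *CSF1R* (0.435), *ETFB* (39.8), *ID4* (1.69), *MIR3661* (8492), *RPL11* (824) and *TYMS* (47.6), and below the rest for *ABHD6* (0 FPKM) and *CD24* (268). *FGB* stood at 176, 133, 140.1 and 134 FPKM in WT, and the 3 values beside the highest still lie above KO at 92.3 to 121.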

How the results depend on the processing

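The number of called genes at 48 h (11) was 20 with array weights, 17 in a fit of the compared groups only (5 of the 11 among them), 21 after median-of-ratios rescaling, 26 after quantile normalization, 7 with a pseudocount of 0.1, 4 without a variance trend (the 3 mitochondrial genes at 0 in WT, and *ID2*), 3 among genes with no opposite-strand overlap, and 2 when genes at 0 throughout a group were removed (*AC009630.2* and *AL049830.3*). With 1 library left out it was 6 to 33. The 9 genes with unlike differences at 48 h and 0 h became 4 without a variance trend, 3 without genes listed at 0, and 6 to 13 with 1 library left out. The 3 genes with unlike differences at 48 h and 24 h became 5 with a pseudocount of 0.1 and 3 to 5 with 1 library left out, 5 without WT replicate 1 at 24 h or WT replicate 0 at 48 h. Without genes listed at 0, removed under the same limit of 5 FPKM, the limma count was 0. In that fit 780 of 16688 genes had an unadjusted p under 0.05, against 853 of 17252 in the main fit, no sign of leftover calls.

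For the shares, every gene at 0 throughout a 48 h group was removed, whatever its level in the other. The KO minus WT difference then turned from 2.64 to -2.75 percentage points for the mitochondrially encoded share. It turned from -1.25 to 1.12 for the antisense share (exact permutation p = 0.114). With 1 library left out these differences were 2.25 to 2.96 and -1.78 to -0.762, and the antisense one passed (-1.78) without WT replicate 3. The alternatives were also counted gene by gene, each gene in each refit being 1 case. The 11 called genes lost their call in 62 of 221 cases and reversed in none. In 5 cases 1 of the other named genes gained a call.

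With the replicate number as a block, 27 genes were called, the 11 among them. The sample titles number the libraries and do not state a pairing, so the main fit used none. Over 3341 genes, deviations of same-numbered KO and WT libraries correlated at -0.01 to 0.089, others at -0.124 to 0.0453. Of 8 libraries 5 correlated best with their own number, a hint from the data and not the design. Whether the libraries were paired is not settled by these values. No fragment counts were used, and SEs were largest for genes of low FPKM.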

Other observations

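Lists not described above held no called gene except *ID2*. Hypoxia and glycolysis genes (21 of 25 tested) had a median difference of -0.003, lysosome and autophagy genes (31 of 32) one of 0.07, and amino acid transporters (16, all tested) one of -0.02, and no member of the 3 lists had an unadjusted limma p under 0.05. The glycolytic enzyme genes *TPI1*° and *PKM* had 95% intervals of -0.49 to 0.41 and -0.33 to 0.58 on the log2 scale, which leave out a 2-fold difference. *SQSTM1*°, which encodes the autophagy receptor p62, stood at 164, 148, 189 and 151 FPKM in WT and 167, 183, 169.6 and 189.7 in KO (0.12 ± 0.18). Xenobiotic enzymes (16 of 26 tested) had a median of -0.19, with 1 member at an unadjusted p under 0.05. That member was *MGST1*, a microsomal glutathione transferase, chosen after its values were seen, at 188, 209, 146 and 159.5 FPKM in WT and 138, 114, 125 and 116 in KO (-0.50 ± 0.19, adjusted p 0.585), without overlap. *FN1*, fibronectin, stood at 392, 315, 352 and 362 FPKM in WT and 365, 292, 332 and 254 in KO (-0.20 ± 0.17), and matrix genes (17 of 24 tested) had a median of -0.19 with none at an unadjusted p under 0.05. The chemokine gene *CCL20* stood at 33.7, 43.7, 30.6 and 38.4 FPKM in WT and 48.8, 57.5, 40.3 and 66.2 in KO (0.52 ± 0.36), with overlap, and the 16 tested NF-kB genes had a median of 0.08. The EGF receptor ligand gene *AREG* stood at 28.7, 17.5, 26.1 and 14.4 FPKM in WT and 32.5, 34.4, 34.3 and 35.5 in KO (0.70 ± 0.65, adjusted p 0.949), and its KO libraries all lay above its WT libraries. The heat shock chaperone *HSP90AA1*° stood at 480.1, 363, 481 and 421 and 414, 323, 451 and 391 (-0.15 ± 0.14). The median of the heat shock list (19, all tested) was 0.12, and it turned negative (-0.01) without WT replicate 3; the hypoxia and transporter medians turned positive (0.03 and 0.01) after rescaling.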
